A study of Rattus norvegicus with 12 samples.

Results

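The genes described here encode the proteins of the mitochondrial ribosome in rat. They were taken as every gene whose platform symbol begins with Mrpl or Mrps followed by a digit, among probe sets that carry exactly 1 symbol. Where a symbol had several probe sets, the brightest on average across the 12 arrays was kept. That gave 68 genes of 14506 in all, 25 of them small subunit genes and 43 large subunit genes. Mrps18a and Mrps30 were counted with the large subunit, where human nomenclature places their proteins. One more probe set named Mrpl20 together with a second gene and was left out.

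The mitochondrial ribosome has a small subunit that reads the message and a large subunit that forms the peptide bond. It makes only the few proteins encoded by mitochondrial DNA, which are subunits of the respiratory chain and of ATP synthase. All of its own proteins are encoded in the nucleus, made on cytosolic ribosomes and imported, so their genes are expressed from many chromosomes while the products must assemble with RNA made inside the organelle. Many have a counterpart in bacteria, and others occur only in mitochondrial ribosomes.

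The cells were aortic vascular smooth muscle cells of the Sprague-Dawley strain, labelled as differentiated. They were grown in M199 medium with 10% fetal bovine serum and then kept without serum for 48 h. The treated groups received 100 nM angiotensin II (Ang II), a peptide hormone that constricts vessels, for 6, 12 or 24 h, and the control group received none. Each group had 3 arrays, 12 in all, labelled as biological replicates. No label ties them to different animals or dishes, and the p-values here therefore rest on array-to-array spread, which may be technical. The treatment protocol in the labels names 1, 3 or 24 h, whereas sample titles and the design text give 6, 12 and 24 h, and the times of the titles are used. No untreated cells of the later times were analysed, so Ang II and time in culture cannot be told apart. In RNA from a whole culture, fewer cells of a type and less RNA per cell cannot be told apart either.

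Array medians lay between 7.22 and 7.32 on the log2 scale. All 12 smooth muscle markers lay above the median level of all genes, and 0 of 9 endothelial and 0 of 9 leukocyte markers did. Of 9 fibroblast markers 5 lay above it. Called lower at 6, 12 and 24 h were 17.2%, 13.3% and 14.7% of all genes, and 5, 5 and 6 of the 9 fibroblast markers. Their per-array median deviation from the control mean was -0.35 to -0.09 at 6 h, -0.34 to -0.20 at 12 h and -0.38 to -0.27 at 24 h, against -0.02 to 0.02 in control. The smooth muscle markers ran at 0.41 to 0.44 on the 24 h arrays, against -0.01 to 0.01 in control. The part of these shifts in the results below was not tested.

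The mitochondrial ribosomal protein genes lay high on the arrays' scale, although signals of different probe sets do not measure relative RNA amounts. Their median level was 9.39, with a range of 7.09 to 12.46, against 8.00 for all genes, and 62 of 68 lay above that median. The median SD between replicate arrays was 0.07 for these genes and 0.08 for all genes. By limma's F test, 33 of 68 differed among the 4 groups at an adjusted p under 0.05, where 51.5% of all genes did. Changes were small: 0 of 68 passed the test with a change of at least 1.5-fold at any time, where 6.87% of all genes did so at 6 h, 3.70% at 12 h and 3.87% at 24 h. The largest change from control was 1.38-fold, for Mrps33 at 24 h.

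After 6 h of Ang II, 9 of the 68 genes were higher than control and 14 were lower, where 18.6% of all genes were called higher and 17.2% lower. The median over the 68 was -0.04 on the log2 scale, against 0.01 for all genes. The large subunit gave 7 higher and 10 lower genes of 43, and the small subunit 2 higher and 4 lower of 25. After 12 h only 4 were higher and 3 lower, where 13.3% of all genes were called in each direction. After 24 h, 2 were higher and 12 lower, where 15.3% and 14.7% of all genes were. The 24 h median was -0.07, against 0.05 for all genes. Of the 68 differences 47 were negative, beside 5741 of all 14506 genes and 3850 of the 7253 above the median level. Among the 7253 genes above the median level, where most of the 68 lie, the 24 h median was -0.01, with 20.3% called higher and 24.1% lower, so the 17.6% lower of the 68 lies below that share. At 6 h those 7253 genes had 31.0% higher and 26.3% lower, and at 12 h 21.3% and 20.9%, above the shares of the 68 in each direction.

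The balance at 24 h depended on how arrays were centred. With each array centred on its median, 8 genes were called higher and 6 lower, and with quantile normalization 4 higher and 10 lower. Of all 14506 genes, median centring called 3559 higher and 1713 lower at 24 h, and quantile normalization 2248 and 2263. The 24 h arrays had a narrower spread of values than control, with an SD over genes of 2.20 to 2.24, against 2.25 to 2.26. The SD ran from 2.24 to 2.28 at 6 h and from 2.23 to 2.29 at 12 h. The part of the spread in the result was not tested. At 6 h, median centring gave 12 higher and 11 lower, beside 3019 higher and 2379 lower of all genes. At 12 h it gave 6 higher and 2 lower, and quantile normalization gave 5 higher and 6 lower. For all genes the 12 h counts were 2232 and 1856 with median centring, and 2097 and 2147 with quantile normalization. The count of lower genes at 24 h was 6 without control array 2, 5 without control array 3 and 5 without 24 h array 2. The count of higher genes at 6 h was 5 without control array 3 and 5 without 6 h array 3, and that at 12 h was 2 without control array 1 and 1 without 12 h array 3. The count of lower genes at 12 h was 1 without control array 2 and 1 without 12 h array 1.

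**Figure D1:**
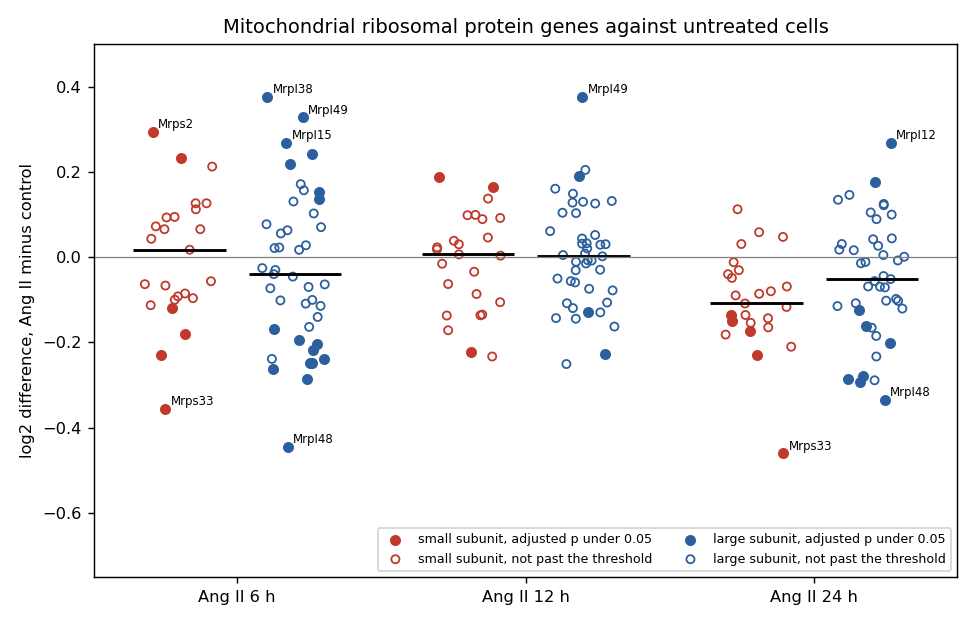
Log2 difference from control (Ang II minus control) of each of 68 mitochondrial ribosomal protein genes at 6, 12 and 24 h, small subunit in red and large subunit in blue; filled points pass limma's adjusted p of 0.05 and bars are medians. All points lie between -0.46 and 0.38, and fewer pass the test at 12 h than at 6 or 24 h.

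In 3 genes the difference from control passed the test at all 3 times. The share of all genes that did so was not counted. Mrpl49, a large subunit protein found only in mitochondria, was higher each time, and Mrps33 and Mrpl52, likewise specific to mitochondria, were lower each time. Their promoters are shown because the 3 genes were called at all 3 times, although each has a call that some settings lost, as given below. That of Mrpl46 is shown because it was called lower at 12 h alone. The windows run from 250 bases before the start site to 50 bases from it on, 5′ to 3′ on the gene's strand, from RefSeq on GRCr8. Capitals mark matches to the searched motifs, CCGGAAG (the letters bound by GABP and other ETS factors) and AANATGGCG (YY1), on either strand.
Mrpl49 (chr1:212779278-212779577, minus strand): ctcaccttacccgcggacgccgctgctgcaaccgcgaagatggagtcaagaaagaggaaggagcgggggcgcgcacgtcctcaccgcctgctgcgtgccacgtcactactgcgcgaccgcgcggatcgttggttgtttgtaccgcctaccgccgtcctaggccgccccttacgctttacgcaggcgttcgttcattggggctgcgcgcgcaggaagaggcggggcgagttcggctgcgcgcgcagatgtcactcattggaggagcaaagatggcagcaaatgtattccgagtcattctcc
Mrps33 (chr4:69566889-69567188, minus strand): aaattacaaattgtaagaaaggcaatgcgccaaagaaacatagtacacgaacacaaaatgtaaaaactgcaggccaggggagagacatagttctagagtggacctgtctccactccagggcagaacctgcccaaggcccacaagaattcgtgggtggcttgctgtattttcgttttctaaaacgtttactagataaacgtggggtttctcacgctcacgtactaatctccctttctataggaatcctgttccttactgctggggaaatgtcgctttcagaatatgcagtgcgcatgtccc
Mrpl52 (chr15:31852686-31852985, plus strand): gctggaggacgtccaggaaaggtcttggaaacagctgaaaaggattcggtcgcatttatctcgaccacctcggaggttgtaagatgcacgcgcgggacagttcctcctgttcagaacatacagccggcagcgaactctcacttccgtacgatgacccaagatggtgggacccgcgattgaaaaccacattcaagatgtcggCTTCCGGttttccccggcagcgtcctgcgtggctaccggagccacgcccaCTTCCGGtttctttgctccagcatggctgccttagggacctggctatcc
Mrpl46 (chr1:142116981-142117280, minus strand): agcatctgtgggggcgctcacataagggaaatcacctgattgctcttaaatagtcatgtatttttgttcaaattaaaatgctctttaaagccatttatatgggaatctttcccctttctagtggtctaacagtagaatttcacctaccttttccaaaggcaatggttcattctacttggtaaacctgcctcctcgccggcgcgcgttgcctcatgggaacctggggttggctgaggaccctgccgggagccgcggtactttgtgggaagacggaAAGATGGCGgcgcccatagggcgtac

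Mrpl52 held CCGGAAG on the opposite strand at 49 bases before the start and again at 1 base after it. Mrpl46 held AANATGGCG at 24 bases after the start. The windows of Mrpl49 and Mrps33 held none of the 5 motifs searched, which says only that these letters are not in these windows.

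Mrpl49 measured 8.81, 8.93 and 9.00 in control cells, 9.31, 9.15 and 9.27 at 6 h, 9.26, 9.28 and 9.33 at 12 h, and 9.17, 9.04 and 9.06 at 24 h. Every Ang II array lay above every control array. The rise was 0.33 ± 0.06 at 6 h and 0.38 ± 0.06 at 12 h on the log2 scale (limma, SE, n = 3 each), with adjusted p of 0.00106 and 0.000626. At 24 h it was 0.18 ± 0.06 with a limma adjusted p of 0.0492, and that call was lost in 14 of 21 alternative settings, among them without control array 1 or 2.

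Mrps33 measured 9.04, 9.22 and 9.19 in control cells, 8.89, 8.68 and 8.82 at 6 h, 8.92, 8.91 and 8.95 at 12 h, and 8.74, 8.59 and 8.75 at 24 h. No Ang II array reached the lowest control array. The difference was -0.35 ± 0.07, -0.22 ± 0.07 and -0.46 ± 0.07 at the 3 times, with limma adjusted p of 0.00131, 0.03 and 0.0003. Leaving out any of control arrays 2 and 3 or of the 12 h arrays 1, 2 and 3 ended the 12 h call.

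Mrpl52 measured 11.86, 11.91 and 11.87 in control cells, 11.68, 11.63 and 11.58 at 6 h, 11.76, 11.73 and 11.76 at 12 h, and 11.63, 11.52 and 11.61 at 24 h. Again no Ang II array overlapped control. The differences were -0.25, -0.13 and -0.29, each with an SE of 0.04, and limma adjusted p of 0.0007, 0.0495 and 0.000309. The 12 h call was lost in 14 of 21 settings, and the other calls in none.

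**Figure D2:**
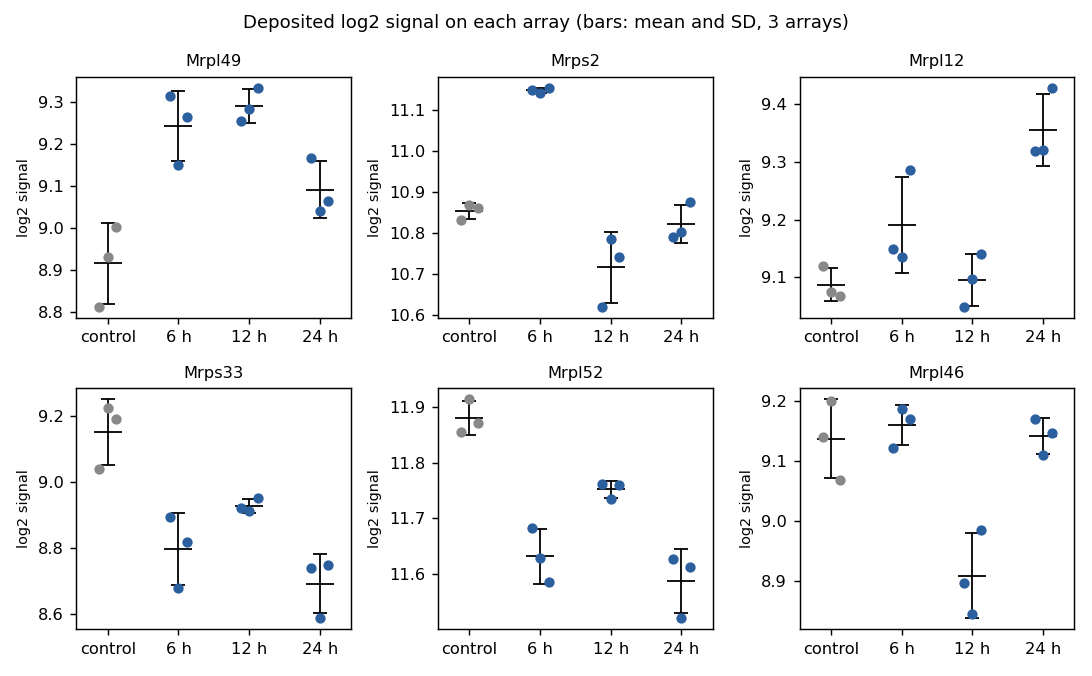
Deposited log2 signal of 6 genes on each of 12 arrays (points), with the mean and SD of 3 arrays a group, in control cells and after 6, 12 and 24 h of Ang II; each panel has its own axis. Mrpl49 lies above control and Mrps33 and Mrpl52 lie below it on every Ang II array, while Mrps2 stands apart at 6 h, Mrpl46 at 12 h and Mrpl12 at 24 h.

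Among the genes that were higher at 6 h, Mrpl38 changed most. Its human protein lies in the central protuberance of the large subunit. It measured 9.74, 9.65 and 9.78 at 6 h, against 9.36, 9.37 and 9.32 in control. The groups did not overlap, and the rise was 0.38 ± 0.06 (limma adjusted p = 0.000282), or 1.30-fold. By 24 h it stood at 9.32, 9.39 and 9.31, which is lower than at 6 h by a log2 difference of -0.38 ± 0.06 (limma adjusted p = 0.000246).

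Mrps2, the small subunit's counterpart of bacterial S2, also rose at 6 h, after Mrpl38 and Mrpl49 in size. It measured 11.15, 11.14 and 11.15 at 6 h, against 10.83, 10.87 and 10.86 in control, a rise of 0.29 ± 0.05 (limma adjusted p = 0.000365). At 12 h it measured 10.62, 10.79 and 10.74, below every control array. That difference from control was -0.14 ± 0.05 with a limma adjusted p of 0.0535, while 12 h against 6 h gave -0.43 ± 0.05 with 4e-05.

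Mrps22, a small subunit protein specific to mitochondria, rose by 0.23 ± 0.04 at 6 h (limma adjusted p = 0.00084) and by 0.16 ± 0.04 at 12 h (adjusted p = 0.0121), the 12 h call lost without control array 1 or 12 h array 3. Mrpl15 rose by 0.27 ± 0.07 at 6 h (limma adjusted p = 0.014), a call lost without control array 3 or 6 h array 3. Mrpl22, whose bacterial counterpart lines the exit tunnel for the new peptide, was 0.24 ± 0.09 higher (limma adjusted p = 0.0477). Its 6 h and control arrays overlapped, and the call was lost in 13 of 21 settings, among them without control array 1 or 3 or 6 h array 1 or 3.

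The lower genes at 6 h were led by Mrpl48, another protein of the human central protuberance. It measured 8.21, 7.86 and 8.29 at 6 h, against 8.51, 8.55 and 8.63 in control. The groups did not overlap, and the difference was -0.44 ± 0.11 (limma adjusted p = 0.00606). At 24 h it was -0.33 ± 0.11 (limma adjusted p = 0.035), a call lost without any 1 of the 3 control arrays or of 24 h arrays 2 and 3.

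Mrpl23, at the tunnel exit in bacteria, measured 11.17, 11.22 and 11.26 at 6 h, against 11.42, 11.54 and 11.43 in control. It fell by 0.25 ± 0.04 (limma adjusted p = 0.000685) with no overlap, and 12 h against 6 h gave 0.25 ± 0.04 (adjusted p = 0.00101). Mrpl51 fell by 0.26 ± 0.05 at 6 h (limma adjusted p = 0.00243) and was 0.22 ± 0.05 higher at 24 h than at 6 h (adjusted p = 0.00775). Mrpl32, whose precursor is cut by a protease of the inner membrane before assembly in yeast and mouse, fell by 0.29 ± 0.10 at 6 h (limma adjusted p = 0.0349). That call was lost in 6 of 21 settings, among them without control array 3 or 6 h array 2 or 3. Mrpl32 was then 0.42 ± 0.10 higher at 12 h than at 6 h (limma adjusted p = 0.00614), which was lost without the narrowest-spread array of every Ang II group.

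Of the 14 genes lower than control at 6 h, 8 were called higher at 24 h than at 6 h (Mrpl23, Mrpl34, Mrpl51, Mrpl54, Mrpl55, Mrpl57, Mrps11 and Mrps24). Both comparisons use the same 6 h arrays, and the matching share of all genes was not counted, so the count is a description. Mrps11 is among the 8 by its chosen probe set, and its other probe set gave -0.05 at 6 h. Mrps24 measured 10.96, 10.97 and 11.02 at 6 h and 11.28, 11.26 and 11.29 at 24 h, beside 11.16, 11.21 and 11.13 in control. The 6 h arrays lay below control and the 24 h arrays above it. The 24 h minus 6 h difference was 0.29 ± 0.04 (limma adjusted p = 0.00017), while 24 h against control, at 0.11 ± 0.04, had 0.0692. The same 24 h minus 6 h difference was 0.30 for Mrpl34, 0.28 for Mrpl55 and 0.27 for Mrpl57, all past the test, and each of these genes was called lower than control at 6 h. Called in opposite directions at 6 and 24 h against control, with 24 h against 6 h also past the test, were 0 of 68 genes, where 3.92% of all genes were. The 0 became 1 with quantile normalization or array weights, and 2 with median centring, trended variance or genes above the median level.

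Called against control at 12 h alone were Mrps18c, which was higher, and Mrpl46, which was lower. The share of all genes called at 12 h alone was not counted. The human protein of Mrpl46 also lies in the central protuberance. Mrpl46 measured 8.90, 8.85 and 8.98 at 12 h, against 9.14, 9.20 and 9.07 in control. At 6 h it measured 9.12, 9.19 and 9.17, and at 24 h 9.17, 9.11 and 9.15. The 12 h arrays lay below all others. The difference at 12 h was -0.23 ± 0.05 (limma adjusted p = 0.00455), and 24 h against 12 h gave 0.23 ± 0.05 (adjusted p = 0.0045).

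At 24 h the higher genes were Mrpl49 and Mrpl12, a protein of the stalk to which translation factors bind. Mrpl12 measured 9.32, 9.32 and 9.43 at 24 h, against 9.12, 9.07 and 9.07 in control. The groups did not overlap, and the rise was 0.27 ± 0.05 (limma adjusted p = 0.00209). Mrpl3 measured 7.98, 8.01 and 8.12 at 24 h, against 8.28, 8.31 and 8.35 in control, a difference of -0.28 ± 0.06 (limma adjusted p = 0.00372). Mrpl36 fell by 0.29 ± 0.07 (limma adjusted p = 0.0128), lost without control array 2 or 24 h array 2. Mrps14 fell by 0.23 ± 0.07 (limma adjusted p = 0.0369), lost in 7 of 21 settings, among them without control array 2 or 3 or 24 h array 2 or 3.

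Between times, 12 h against 6 h gave 7 higher and 3 lower genes of 68, where 13.1% and 13.9% of all genes were called. For 24 h against 12 h there were 4 higher and 15 lower, where 14.0% and 13.5% were, and for 24 h against 6 h there were 11 higher and 15 lower, where 19.4% and 19.8% were. Without 24 h array 2, the 15 lower genes of 24 h against 12 h became 5, without 12 h array 3 they became 7, and without 24 h array 3 they became 9. The 7 higher genes of 12 h against 6 h became 4 without 6 h array 2 or 12 h array 2, and the 3 lower ones became 5 without 6 h array 2. The 11 higher genes of 24 h against 6 h became 7 without 6 h array 1 or 24 h array 3. Mrpl50 had the lowest 24 h minus 12 h difference, -0.36 ± 0.11 (limma adjusted p = 0.029), with 7.20, 6.73 and 7.01 at 24 h against 7.43, 7.35 and 7.25 at 12 h. That call was lost without 12 h array 1 or 2 or 24 h array 2 or 3. Mrps9 fell between 6 and 24 h, by 0.31 ± 0.07 (limma adjusted p = 0.00428).

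The 3 Mrps18 paralogs share an ancestry with a single bacterial protein and occupy different places in the ribosome. Mrps18a, in the large subunit, was 0.15 ± 0.05, 0.19 ± 0.05 and 0.02 ± 0.05 above control at 6, 12 and 24 h, with limma adjusted p of 0.0406, 0.018 and 0.824. Its 6 h call was lost without any 1 of the 3 control arrays or of 6 h arrays 2 and 3, and its 12 h call without control array 1 or 3 or 12 h array 1 or 3. Mrps18c gave 0.13, 0.19 and -0.12, and only the 12 h difference passed the test (limma adjusted p = 0.0161), a call lost without control array 1 or 12 h array 3. Mrps18c was lower at 24 h than at 12 h, with a difference of -0.30 ± 0.05 (limma adjusted p = 0.000931). Mrps18b differed from control by 0.07, 0.01 and -0.09, none past the test. The 3 genes with the smallest F statistic were Mrpl19, Mrps12 and Mrpl42. Mrpl19 differed from control by 0.02, 0.00 and 0.02, each with an SE of 0.07.

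Probe sets of the same gene could differ. For Mrps11 the chosen probe set gave -0.23, -0.09 and -0.04 at 6, 12 and 24 h, and its other probe set gave -0.05, 0.11 and 0.05. At 6 h the chosen and other probe sets gave 0.06 and 0.11 for Mrpl40, 0.13 and 0.10 for Mrpl41, and -0.07 and -0.12 for Mrpl42. At 24 h they gave 0.0 and -0.02 for Mrpl40, -0.11 and -0.13 for Mrpl41, and -0.01 and -0.11 for Mrpl42.

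The nuclear genes that serve mitochondrial translation were read beside the ribosomal proteins. Of all genes, 18.6% were called higher and 17.2% lower at 6 h, and 13.3% each way at 12 h. At 24 h 15.3% were higher and 14.7% lower. With so few genes in each list, the counts are a description. Of 23 assembly and rRNA modification genes, 2 were higher and 5 lower at 6 h, 0 and 4 at 12 h, and 0 and 7 at 24 h. Nsun4, an rRNA methyltransferase, differed by 0.11, -0.42 and -0.50, the last 2 past the test. Mtg1, a GTPase of large subunit assembly, fell by 0.51 ± 0.06 at 6 h (limma adjusted p = 3.7e-05). Of 14 translation factors and activators, 5 were higher and 3 lower at 6 h, 2 and 1 at 12 h, and 3 and 3 at 24 h. Gfm2, which acts with Mrrf to split ribosomes after termination, fell by 0.71 ± 0.06 at 6 h (limma adjusted p = 1.94e-06). Mrrf fell by 0.36 at 6 h and rose by 0.32 at 24 h, both past the test. Of 13 genes that load mitochondrial tRNAs, 11 aminoacyl-tRNA synthetases and the amidotransferase subunits Qrsl1 and Gatc, 1 was higher and 3 lower at 6 h, 1 and 0 at 12 h, and 0 and 0 at 24 h.

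For the next lists too, the shares of all genes higher and lower were 18.6% and 17.2% at 6 h. They were 13.3% each at 12 h, and 15.3% and 14.7% at 24 h. Genes of mitochondrial DNA transcription and RNA processing had 7 higher and 1 lower of 18 at 6 h, 0 and 7 at 12 h, and 0 and 6 at 24 h. Their medians were 0.17, -0.10 and -0.14. Polg, the mitochondrial DNA polymerase, rose by 0.37 ± 0.05 at 6 h (limma adjusted p = 9.57e-05), and Tfam, which packages mitochondrial DNA and starts its transcription, fell by 0.47 ± 0.07 at 24 h (adjusted p = 0.000229). Among 12 nuclear regulators, 5 were higher and 3 lower at 6 h, 0 and 3 at 12 h, and 0 and 5 at 24 h. Nrf1, a transcription factor of many mitochondrial protein genes, differed by 0.15, -0.18 and -0.30, all past the test. Gabpa, the DNA-binding subunit of GABP, gave -0.02, -0.03 and -0.31, the last past the test. Myc, a growth regulator, differed by -0.53, -0.68 and -0.78, each past the test. These named regulators do not stand for the list: at 24 h, 5 of the 12 differences were positive and 7 negative. The highest, 0.26 for Ppargc1a, did not pass the test.

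The cytosolic ribosome's protein genes were read beside the mitochondrial ones at 24 h. The mitochondrial list had 2 higher and 12 lower of 68, with a median of -0.07, beside 0 higher and 48 lower of 70 cytosolic genes, with a median of -0.19. The cytosolic list had 0 higher and 9 lower genes at 6 h and 0 higher and 10 lower at 12 h. Of 73 nuclear oxidative phosphorylation subunit genes, 3 were higher and 8 lower at 6 h, 5 and 1 at 12 h, and 10 and 13 at 24 h. Higher and lower among all genes were 18.6% and 17.2% at 6 h, and 13.3% each at 12 h. The 24 h shares were 15.3% and 14.7%. On single arrays the mitochondrial ribosomal median was -0.03, -0.11 and -0.06 at 24 h and -0.04, 0.03 and 0.00 in control, so the first 24 h array lay within the control range. The cytosolic median was -0.15, -0.21 and -0.19 at 24 h, below every control array. The lists also lay at different levels, with a median of 12.85 for the cytosolic genes and 9.39 for the mitochondrial ones. The part of level, and of the narrower spread of the 24 h arrays, was not tested. Neither was the difference between the lists.

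**Figure D3:**
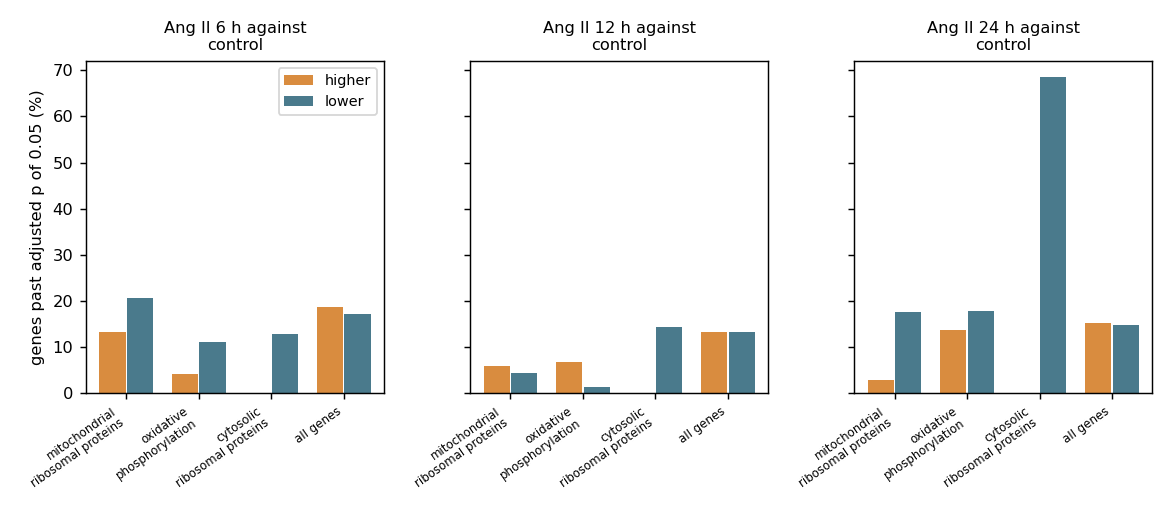
Percent of genes higher (orange) or lower (blue) than control at limma's adjusted p under 0.05, for 68 mitochondrial ribosomal protein genes, 73 oxidative phosphorylation genes, 70 cytosolic ribosomal protein genes and all 14506 genes, at 6, 12 and 24 h. At 24 h 17.6% of the mitochondrial list is lower, beside 68.6% of the cytosolic list, 14.7% of all genes and 24.1% of genes above the median level (not drawn).

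**Figure D4:**
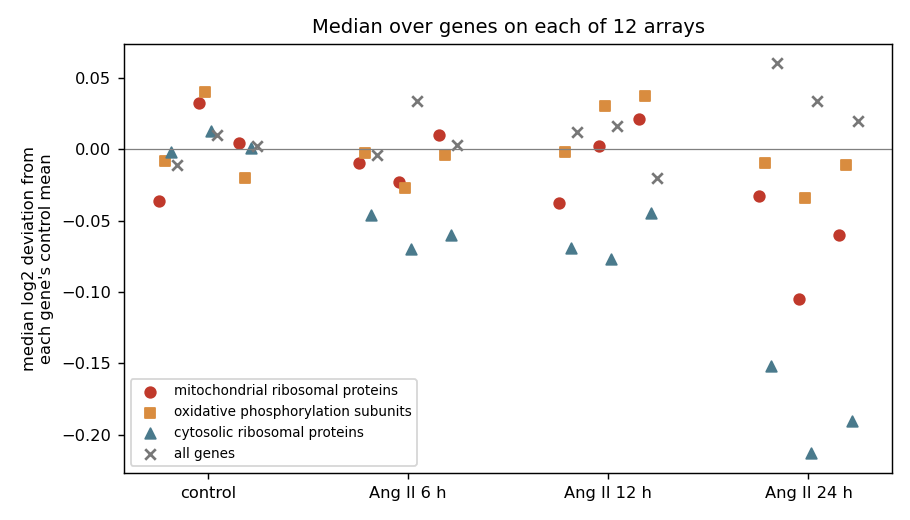
Median log2 deviation from each gene's control mean on each of 12 arrays, for 3 lists and all genes, with arrays 1 to 3 from left to right in a group. The mitochondrial ribosomal median runs from -0.11 to -0.03 at 24 h and from -0.04 to 0.03 in control, and the cytosolic one from -0.21 to -0.15 at 24 h.

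Of the 68 genes, 54 matched a RefSeq promoter window. CCGGAAG was found in 18 of 54 windows (33.3%), where 9.2% of all 27457 windows and 13.0% of those of measured genes held it. AANATGGCG was found in 12 (22.2%), where 3.3% and 4.5% held it. The NRF1 core GCGCATGC was found in 5 (9.3%, against 2.7% and 3.9%), the E-box CACGTG in 6 (11.1%, against 6.7% and 7.9%) and the CRE TGACGTCA in 1 (1.9%, against 1.9% and 2.5%). Both strands were searched, and a match is a description of letters. Median GC content was 56.2% in the 54 windows, 52.3% in all windows and 58.0% in those of measured genes.

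A gene on the opposite strand started within 1000 bases, facing away, for 18 of the 54 genes (33.3%), where 12.2% of measured genes had one. For 14 of them the neighbour was measured, which makes 13 pairs, since Mrpl46 and Mrps11 are each other's neighbours. Of the 14, 3 genes and 5 neighbours passed the test at 6 h, 3 and 2 at 12 h, and 4 and 6 at 24 h. Both passed for 0 at 6 h, 0 at 12 h and 2 at 24 h, 1 of these in the same direction, and with so few calls these counts show no relation either way. Mrpl46 and Mrps11 start 234 bases apart. Mrps11 fell by 0.23 at 6 h where Mrpl46 gave 0.02, and Mrpl46 fell by 0.23 at 12 h where Mrps11 gave -0.09. The 6 h contrast rests on the chosen Mrps11 probe set, since the other gave -0.05. Mrpl49 starts 186 bases from Fau, which encodes a fusion of a ubiquitin-like protein and a cytosolic ribosomal protein. Mrpl49 differed from control by 0.33, 0.38 and 0.18, and Fau by -0.02, -0.03 and -0.16, the last past the test. Mrps18b starts 588 bases from Ppp1r10. At 6 h Mrps18b gave 0.07 ± 0.05, where Ppp1r10 fell by 1.49 ± 0.05 (limma adjusted p = 1.49e-09).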

How the data were processed

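RNA was extracted with Trizol, and 100 ng was labelled with biotin for Affymetrix Rat Gene 1.0 ST arrays, per the labels' protocols. The table the authors deposited holds log2 values of 29214 probe sets on 12 arrays, and the submitters' processing notes name RMA and Partek, with versions not given in the sources used here. Probe sets were named from the platform annotation, 15310 with 1 symbol, 323 with several and the rest unnamed, and 1 probe set a gene was kept. Group means were fitted over all 12 arrays with limma 3.58.1 (R 4.3.3, lmFit and eBayes), with Benjamini-Hochberg adjustment over 14506 genes, two-sided, at a threshold of 0.05. The fit was tested on simulated data. The recovery required there was for changes larger than any seen in the mitochondrial ribosomal protein genes. A difference is Ang II minus control, or the later minus the earlier time. The genes and lists were chosen with earlier results of these data known. Genes were named by size of change: up to 6 each way against control, 4 each way between times, the 3 of smallest F and the Mrps18 paralogs, with some from other lists. Mrps11 and Fau were named after their values were seen, as were the pairs of neighbouring genes. The number of arrays limits the precision.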

Additional observations from a re-analysis of the deposited data

How the results depend on the processing

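Over the alternatives run, the named genes' differences in every comparison were counted, whether called or not. They kept their side of the threshold in 3610 cases, gained a call in 92 and lost one in 192. Sign changes were counted only where a difference was called, and there were 0. The 3610 include differences that were never called. Counts are given as higher and lower genes of 68. With a replicate block, 24 h had 1 higher gene. With the 2 groups fitted alone, 24 h had 1 and 7. Among genes above the median level, 12 h had 7 and 9, 24 h had 5 higher, 12 h against 6 h had 7 lower, and 2 genes had opposite directions at 6 and 24 h. Quantile normalization gave 6 lower at 12 h, 4 higher at 24 h, 11 higher for 12 h against 6 h, a 24 h against 6 h median of -0.028 and 1 opposite gene. Median centring, which moved the median of all genes at 24 h to 0.103, gave 8 and 6 at 24 h with a median of -0.014, 6 lower for 12 h against 6 h, 7 higher with a median of -0.051 for 24 h against 12 h, a median of -0.025 for 24 h against 6 h, and 2 opposite genes. Trended, robust variance gave 7 and 8 at 12 h, 5 higher at 24 h, 5 lower for 12 h against 6 h and 2 opposite genes. Array weights gave 4 higher at 24 h, 5 lower for 12 h against 6 h and 1 opposite gene. A minimum of 1.2-fold left 4 and 3 at 6 h, 1 and 0 at 12 h, 1 and 5 at 24 h, 2 and 1 for 12 h against 6 h, 0 and 5 for 24 h against 12 h, and 4 and 4 for 24 h against 6 h. Leaving out the narrowest-spread array of every Ang II group, chosen after seeing the data, gave a 6 h median of 0.01, 5 lower at 24 h, 4 higher for 12 h against 6 h, 6 lower for 24 h against 12 h and 7 higher for 24 h against 6 h. The cause of these shifts was not tested.

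Leaving out 1 array at a time gave 5 to 9 higher and 10 to 14 lower genes at 6 h (median -0.046 to 0.01), 1 to 5 and 1 to 4 at 12 h (median -0.015 to 0.021), and 1 to 3 and 5 to 12 at 24 h (median -0.102 to -0.05). It gave 4 to 9 and 2 to 5 for 12 h against 6 h (median -0.005 to 0.034), 3 to 4 and 5 to 17 for 24 h against 12 h (median -0.109 to -0.056), and 7 to 11 and 11 to 18 for 24 h against 6 h (median -0.091 to -0.031). The F test called 27 to 35.

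The labels do not say that replicate numbers pair the arrays. To look for pairing, each gene's group mean was subtracted, and arrays of different groups were correlated on what remained. These residuals correlated at -0.103 to 0.299 over 18 pairs of the same number (median 0.026, 3 over 0.1). Pairs of different number gave -0.28 to 0.257 over 36 pairs (median -0.02, 5 over 0.1). Since not every same-numbered pair exceeded 0.1, the arrays were not treated as paired, although 7 of 12 correlated best with their own number. With the replicate block the counts were 7 and 14 at 6 h, 4 and 3 at 12 h, and 1 and 10 at 24 h.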
